A study of Mus musculus with 4 samples.

Results

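Colony stimulating factors are the growth factors of macrophages and granulocytes, and their transcripts were examined here in mouse mammary tumors together with those of their receptors. The 9 genes were taken from a list of names and not by their values: the ligands *Csf1*, *Il34*, *Csf2* and *Csf3*, the receptor genes *Csf1r*, *Csf2ra*, *Csf2rb* and *Csf3r*, and the neutrophil chemokine receptor gene *Cxcr2*. Of the 9, 7 had at least 1 listed transcript, among 11221 genes with a listed transcript in whole tumor or tumor Treg data.

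Tumors were grown from 4T1 cells, a line of mammary carcinoma from Balb/c mice, of which 10000000 were injected into the mammary fat pad of female Foxp3+EGFP Balb/c mice aged 8 weeks. In these mice EGFP is made under the Foxp3 promoter, which is active in regulatory T cells (Tregs). Mice of each group received Control SMO, an oligomer without a target, or LFPRLR SMO, at 100 pmoles/h/mouse for 12 days. An SMO is a splice-modulating oligomer, and LFPRLR SMO blocks the splicing that makes the long prolactin receptor (LFPRLR). The labels describe the injected cells as treated with the oligomer, whereas the study's methods describe treatment of the mice. RNA was sequenced (Illumina MiSeq) from whole tumor of each treatment and from Tregs that were sorted by EGFP from tumors of each treatment. Each of the 4 libraries was 1 pool of RNA from 6 mice, so that there was 1 sample in each group, no spread between replicates is known, and no test was made. The values of the tumor Tregs were equal under both labels for 4838 of 4838 transcripts, so only the library labelled Control SMO was used and no comparison of treatments was made for tumor Tregs.

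The data are FPKM, fragment counts scaled to transcript length and library size, for 22481 assembled transcripts in Control SMO tumor, 31908 in LFPRLR SMO tumor and 4838 in tumor Tregs. The number of reads was not given in the sources used here, so depth is unknown. *Prlr*, the gene targeted by LFPRLR SMO, had no listed transcript in any of the sets, so the labels could not be checked by it. By contrast, the study reported the long form of *Prlr* in its sequencing of tumor Tregs with Control SMO, and none with LFPRLR SMO. None of 13 T cell markers was listed in any set, and *Foxp3* was not listed in the tumor Treg values. The tumor Treg list held 17 of 18 macrophage markers, with a summed FPKM of 474, against 659 and 436 in the Control SMO and LFPRLR SMO whole tumor libraries. Endothelial markers were listed for 0 of 7 in the tumor Treg values and epithelial markers for 6 of 9. Levels called tumor Treg levels below are therefore those of a library that did not show the defining markers of its label. Absence from a list does not mean that a gene was not expressed. Whole tumor and tumor Treg values were normalized separately by different programs and are set side by side only.

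CSF-1 and IL-34 are the ligands of the CSF-1 receptor, a receptor tyrosine kinase on which most tissue macrophages depend, and CSF-1 made by mammary tumor cells is known to draw macrophages into the tumor. GM-CSF (*Csf2*) binds its own alpha chain (*Csf2ra*) and signals through the common beta chain (*Csf2rb*), which it shares with IL-3 and IL-5. G-CSF (*Csf3*) acts through *Csf3r* on neutrophil precursors, and CXCR2 is the receptor by which neutrophils follow CXC chemokines out of marrow and into tissue.

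In whole tumor, *Csf1r* and *Csf1* had the highest levels among the members whose listed transcripts covered most of the gene. For each member 2 levels were formed. The FPKM of a gene is the sum over its listed transcripts. The exon-weighted value multiplies each transcript's FPKM by the share of the longest annotated transcript that it covers, so that a short piece counts for little. By the exon-weighted value the order in Control SMO tumor was *Csf1r* 10.2, *Csf1* 5.30, *Csf2rb* 2.85, *Cxcr2* 2.42, *Csf3* 2.03, *Csf2ra* 0.799 and *Csf3r* 0.661. With LFPRLR SMO it was *Csf1r* 6.47, *Csf1* 4.19, *Csf2rb* 2.51, *Csf2ra* 1.78 and *Csf3r* 1.18. The first 3 places were thus held by the same genes in both libraries. Without replicates, no neighbours in either order can be said to differ. The plot of levels by library shows that the summed FPKM gave another order, led by *Cxcr2* in Control SMO tumor and by *Csf2rb* in LFPRLR SMO tumor.

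**Figure D1:**
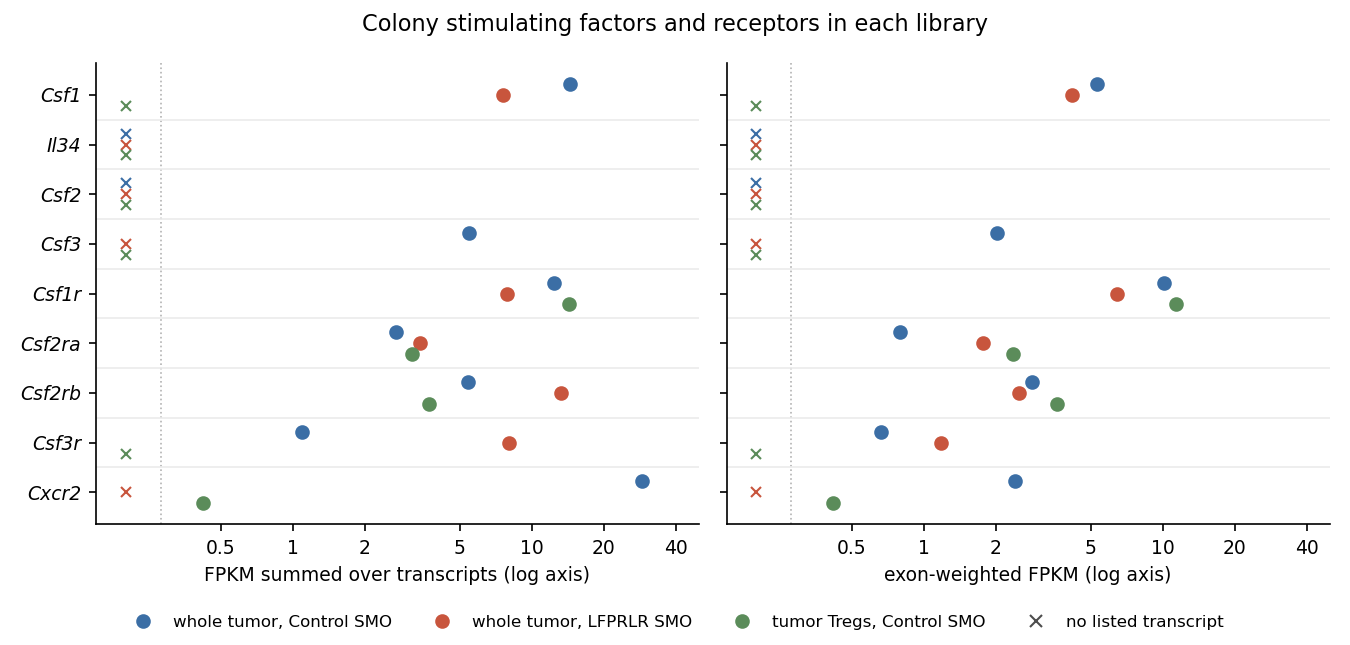
FPKM summed over transcripts (left) and exon-weighted FPKM (right) of the 9 genes, ligands above receptors, on log axes. Each point is 1 library and a cross left of the dotted line marks a gene with no listed transcript; *Csf2* and *Il34* have crosses only, and the *Cxcr2* point in Control SMO tumor moves from 28.8 to 2.42 between the panels.

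The comparison of treatments asks whether knockdown of the long prolactin receptor went with a change of these genes in whole tumor. On the FPKM scale, the CSF-1 receptor gene *Csf1r* had 12.4 in Control SMO tumor and 7.85 in LFPRLR SMO tumor and its ligand *Csf1* 14.4 and 7.54. The beta chain gene *Csf2rb* had 5.40 and 13.2 and the G-CSF receptor gene *Csf3r* 1.09 and 8.02, but both higher values were carried by short pieces of the genes. *Csf3* and *Cxcr2* were listed in Control SMO tumor alone.

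Of the 9 genes, 7 were listed in Control SMO tumor and 5 in LFPRLR SMO tumor, and the 5 were among the 7. The ratio of LFPRLR SMO to Control SMO was taken as log2 after adding 0.1 FPKM to both values, which understates ratios of low genes. Of 7 genes with at least 1 FPKM in either library, 2 (*Csf2rb* and *Csf3r*) were higher by a factor of 2 in LFPRLR SMO tumor, where 18.5% of all 10462 genes were. *Csf3* and *Cxcr2* counted as lower by a factor of 2 because they were not listed in LFPRLR SMO tumor, where 17% of all genes were lower. *Csf1*, *Csf1r* and *Csf2ra* lay within a factor of 2. These shares are for summed FPKM. By the exon-weighted value 1 of 7 genes (*Csf2ra*) was higher and 2 (*Csf3* and *Cxcr2*) were lower, with 5.74% and 8.53% of all 8902 genes past the same factor. Over only those exon bases that both libraries covered, 1 of 5 genes (*Csf3r*) was higher and 0 were lower, with 1.68% and 3.78% of 8562 genes. This last measure was chosen after seeing the data, and it averages the FPKM of whole transcripts. For a gene with 1 transcript in each library it therefore repeats the ratio by summed FPKM. *Csf3r*, with 141 bases covered in both, is such a gene.

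The list of genes past a factor of 2 thus differed between the 3 measures, and no gene listed in both libraries was past it in all of them. All ratios here are on the FPKM scale. Rescaling each library's listed FPKM to the same sum (TPM) adds 4.55 to every log2 ratio before the pseudocount, which turns the ratios of *Csf1* and *Csf1r* positive and puts 4 of 4 members with a TPM of at least 1 higher by a factor of 2, as it does 6294 of 6311 genes, with 13 lower. The ratio of the median gene was -0.09 by FPKM over 8586 genes with at least 1 FPKM in both libraries, and -0.13 over common bases.

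**Figure D2:**
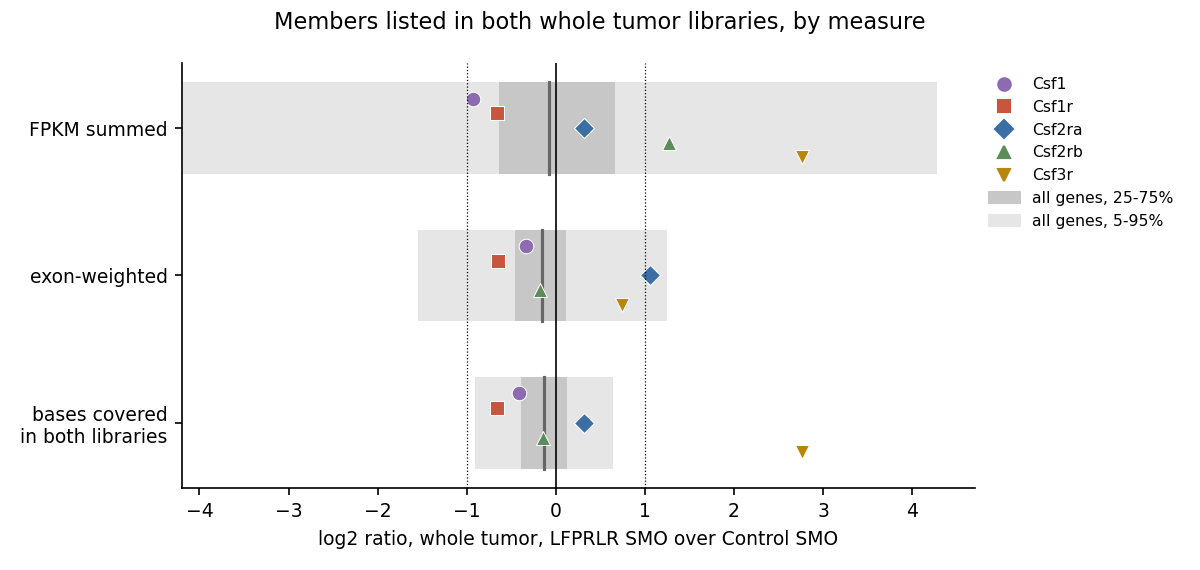
Log2 ratio of LFPRLR SMO over Control SMO in whole tumor for the 5 members listed in both libraries, by the 3 measures on the FPKM scale (TPM would turn *Csf1* and *Csf1r* positive). Grey bars span the stated percentiles of all genes, the short line is the median gene and dotted lines mark a factor of 2. *Csf2rb* lies at 1.27 by summed FPKM and at -0.18 and -0.14 by the other measures. *Csf1r* lies near -0.65 in each, but with 1 transcript in each library all 3 measures rest on the same FPKM values.

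*Csf1*, on chromosome 3 (mm10 chr3:107741048-107760469, minus strand), was the ligand with the highest level. Its short splice form was listed with all of its introns in both whole tumor libraries, and its long form only in pieces. The long form encodes a precursor from which CSF-1 is secreted, and the short form, made by skipping most of the coding part of exon 6, encodes CSF-1 that stays on the cell surface. The annotated long form has 551 codons and an exon 6 of 1016 bases, and the annotated short form has 256 codons and 131 bases of that exon, which leaves 885 bases only in the long form. The junction of exon 5 with exon 6 tells the forms apart. It is shown here 5′ to 3′ from the GENCODE M21 transcripts (GRCm38), with the last 15 bases of exon 5 in lower case and the first 15 bases of exon 6 as each form uses it in capitals. The intron removed spans chr3:107749170-107750310 in the long form and chr3:107748285-107750310 in the short form.
Csf1 long form: agtgctctagccgagATGTGGTGACCAAGC
Csf1 short form: agtgctctagccgagGCCATGTGGAGCAGC

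Transcripts with the short junction had an FPKM of 4.05 in Control SMO tumor and 3.45 in LFPRLR SMO tumor. Transcripts with the long junction had 4.86 and 4.09. The mean FPKM over the bases only in the long form was 4.85 and 4.00. Of the FPKM with either junction, the short junction held 45.4% in Control SMO tumor and 45.8% in LFPRLR SMO tumor. These percentages were nearly the same, but they rest on FPKM of whole assembled transcripts and not on counts of junction reads. No transcript with the long junction reached past the part only in the long form. The later bases, which both forms share, were listed with the short junction alone. The share of the forms themselves is therefore not known. The transcript of the short form had 9 exons and the same introns as the annotated short form in both libraries, with 3494 and 3387 bases. The bounds that the authors' program gave for it, 3.38 to 4.70 in Control SMO tumor and 2.84 to 4.06 in LFPRLR SMO tumor, overlapped. The bounds concern reads within a library and not the spread between tumors.

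The sum of FPKM over *Csf1* transcripts differed more than the transcripts with either junction, with 14.4 in Control SMO tumor, 7.54 in LFPRLR SMO tumor and a log2 ratio of -0.92. With Control SMO the long form was listed as 2 pieces, of 4.86 with the junction and of 5.50 as a single exon of 723 bases, which the sum counts separately. The piece with the junction held 65 bases of the part only in the long form. With LFPRLR SMO the long form was 1 piece of 1851 bases that held 97.9% of this part. That piece had 340 bases outside annotated exons, and its introns were those of no annotated form. By the exon-weighted value the ratio was -0.33, over 4055 common bases -0.41 (5.46 against 4.09) and for the transcript with the short junction -0.22. The shift under TPM turns all 4 positive. *Csf1* was not among the genes listed for tumor Tregs.

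The assembled 5′ end of *Csf1* lay upstream of the annotated start, by 227 bases in Control SMO tumor and by 104 bases in LFPRLR SMO tumor. This stretch of the *Csf1* promoter is shown because these ends fall in it. It is the RefSeq promoter entry (GRCm38.p6, chr3:107760560-107760719, minus strand) from 250 to 91 bases before the annotated start, with matches to the NF-kappaB motif (GGGA, any 4 bases, then CC) on either strand in capitals.
Csf1: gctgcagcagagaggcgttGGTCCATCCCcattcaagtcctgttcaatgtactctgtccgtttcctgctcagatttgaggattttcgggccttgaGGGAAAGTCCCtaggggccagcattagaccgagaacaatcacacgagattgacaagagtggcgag

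Counted from the first base shown, the Control SMO transcripts began at base 24 and the LFPRLR SMO transcript at base 147. The 3 matches start 231, 155 and 154 bases before the annotated start, the last 2 overlapping on opposite strands, and 20.7% of 32851 RefSeq promoter entries of 300 bases hold at least 1 match. Promoter entries were matched for 5 of the 9 genes, not for *Csf1r*, *Csf2rb*, *Csf3* and *Il34*. GAGGAA, the core bound by ETS factors such as PU.1, occurred in those of *Cxcr2* (2 matches), *Csf2ra* (2) and *Csf3r* (1) and in 28.3% of all promoters. *Csf3r* and *Csf2* each held 1 NF-kappaB match, and *Csf2* held 1 match to the C/EBP motif TTGCNNAA, found in 10.8% of promoters. The STAT motif TTCNNNGAA (8.3% of promoters) and the AP-1 motif TGANTCA (7.81%) were in none of the 5. Matches are letters in a window and were not tested as binding sites.

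The other ligands were low or not listed. *Csf3* (chr11:98701263-98703629, plus strand) was listed in Control SMO tumor alone, at an FPKM of 5.46 and an exon-weighted value of 2.03. The FPKM was the sum of a piece of 1.01 that reached 1155 bases beyond the annotated start and a piece of 4.45 with 658 bases. Together they covered 63.6% of the annotated transcript and 100% of its coding bases. With LFPRLR SMO no transcript overlapped *Csf3*, where the lowest FPKM listed for any transcript of like length (within 20%) was 0.492. Being listed in Control SMO tumor alone held for 8.47% of the 10607 genes listed in either whole tumor library, and in LFPRLR SMO tumor alone for 9.4%.

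*Csf2* (chr11:54247271-54249667, minus strand) and *Il34* (chr8:110741829-110805924, minus strand) had no listed and no overlapping transcript in any set. The study, by contrast, named *Il34* among genes that were lower in tumor Tregs with LFPRLR SMO. Transcripts of the length of *Csf2* were listed down to 0.994 FPKM in Control SMO tumor, 0.866 in LFPRLR SMO tumor and 0.0946 in tumor Tregs. For the length of *Il34* the lowest were 0.360, 0.346 and 0.00686. The low tumor Treg values were those of transcripts that carry a gene name in the deposited data. Tumor Treg transcripts without such a name were listed at 2.64 FPKM or more. The low values therefore do not show that a gene without a named transcript would be listed at such levels. The levels of GM-CSF and IL-34 transcripts, if any, were not detectable in these lists.

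*Csf1r*, the receptor of CSF-1 and IL-34 (chr18:61100598-61132149, plus strand), was the most completely assembled member. In each of the 3 sets it was listed as 1 transcript of 21 exons with the 20 annotated introns and 100% of the coding bases. Its FPKM was 12.4 in Control SMO tumor, 7.85 in LFPRLR SMO tumor and 14.3 in tumor Tregs. More than 60% of genes had a lower FPKM in every set, 81.3% in Control SMO tumor, 66.2% in LFPRLR SMO tumor and 91.5% in tumor Tregs. Its log2 ratio on the FPKM scale was -0.66 for the sum, -0.64 exon-weighted and -0.66 over 3841 common bases, and positive after rescaling to TPM. With 1 transcript in each library, the first 3 ratios rest on the same FPKM values and are not separate evidence. A lower ratio was found for 24.4% of genes by summed FPKM, 16.2% exon-weighted and 10.9% over common bases. In LFPRLR SMO tumor a transcript of the neighbouring gene *Hmgxb3*, listed on the opposite strand at 1.32 FPKM, covered a further 16.5% of the annotated *Csf1r* transcript at its 3′ end.

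The bounds of the *Csf1r* transcript did not overlap, 11.3 to 13.6 in Control SMO tumor against 6.98 to 8.73 in LFPRLR SMO tumor. Among 4025 transcripts whose introns were the same in both libraries, 22.9% lay with their LFPRLR SMO bounds wholly below and 6.73% wholly above. A separation of bounds was therefore frequent, and it does not include the spread between mice. In bulk tumor, fewer cells of a type cannot be told apart from less RNA per cell.

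**Figure D3:**
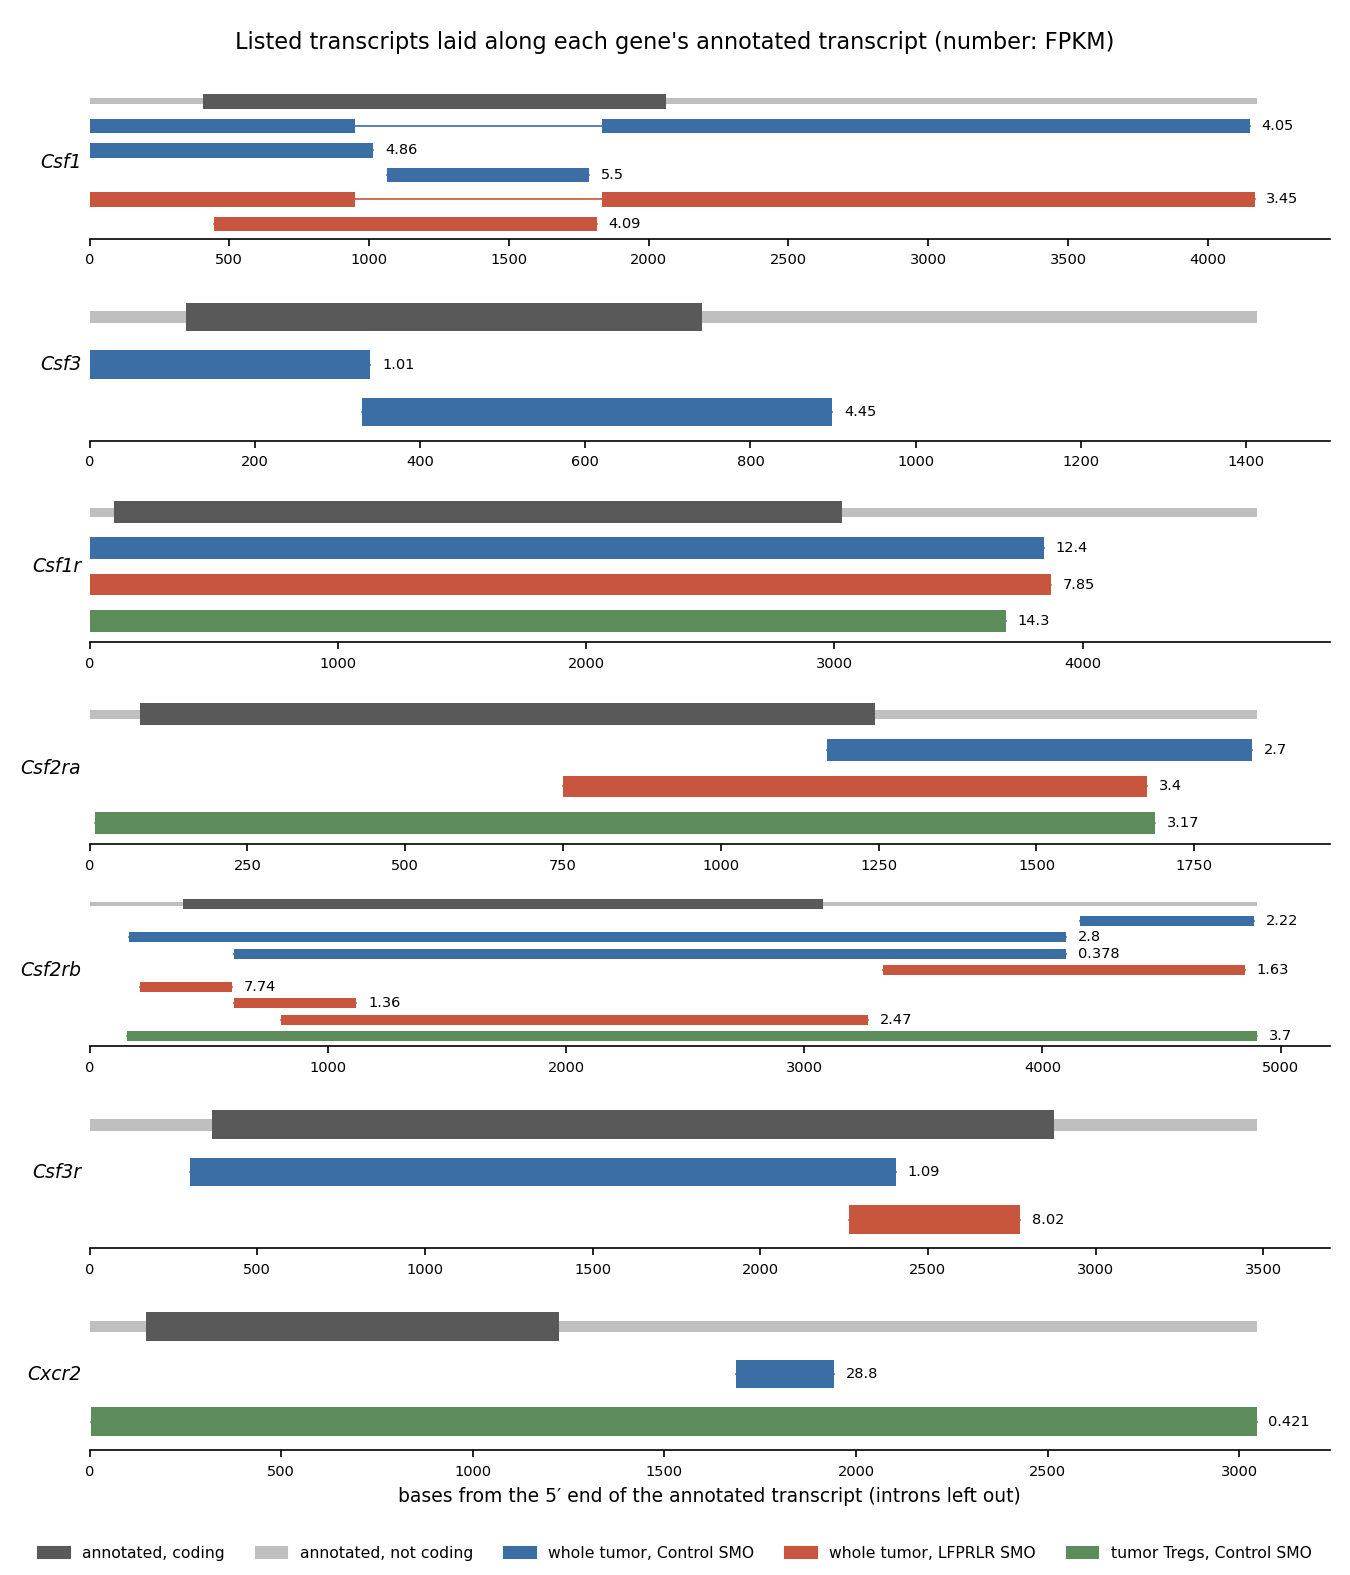
Listed transcripts (colored bars, numbers give their FPKM) laid along the annotated transcript of each of the 7 listed members, in bases from its 5′ end with introns left out; thin lines join parts of 1 transcript across skipped bases. *Csf1r* is covered from end to end of its coding part in all sets, *Csf2rb*, *Csf3* and *Csf1* are in pieces, and the *Cxcr2* bar in Control SMO tumor lies outside the coding part; the tumor Treg bar of *Csf2rb* includes a last exon listed at 0.

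Macrophage markers were lower in LFPRLR SMO tumor together with *Csf1r* on the FPKM scale. The shift under TPM exceeds the ratio of each marker listed in both libraries. Of 18 markers, 16 had a ratio below 0 by summed FPKM (53.8% of all genes did) and their median was -0.60, against -0.08 for all genes listed in either library. Of the 18, 5 were lower by a factor of 2 (*C1qc*, *Fcgr1*, *Aif1*, *Mertk* and *Ms4a7*, the last not listed in LFPRLR SMO tumor), where 17% of all genes were, and none was higher. Over common bases the median of 17 markers was -0.49, 15 were below 0 and 2 (*C1qc* and *Aif1*) were lower by a factor of 2, while all genes had a median of -0.13, with 63.7% below 0 and 3.78% lower by a factor of 2. The highest markers were *Apoe* (206 and 121 FPKM), *Ctss* (134 and 105) and *Lyz2* (110 and 76.1), all 3 within a factor of 2. *Csf1r* is not in this marker list. Its FPKM equalled 1.88% of the summed FPKM of the macrophage markers in Control SMO tumor, 1.80% in LFPRLR SMO tumor and 3.02% in tumor Tregs. Without *Apoe*, the highest marker, the percentages were 2.74%, 2.49% and 5.88%. Scaling of a library does not alter these percentages. The part of macrophage number in the ratio of *Csf1r* was not tested.

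**Figure D4:**
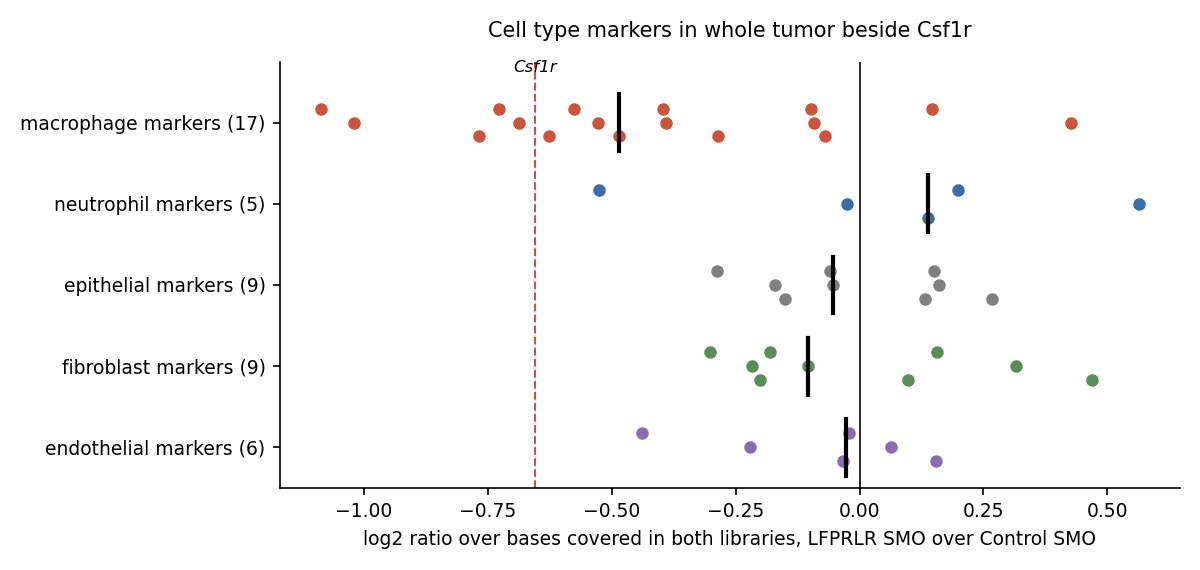
Log2 ratio of LFPRLR SMO over Control SMO in whole tumor for cell type markers (1 point a gene, number of genes in brackets, black line the median), over bases covered in both libraries on the FPKM scale (TPM would move every point to the right by up to 4.55). The macrophage markers have a median of -0.49 beside *Csf1r* at -0.66 (dashed line), and the other lists plotted have medians between -0.10 and 0.14; the dendritic and Treg lists, with 1 gene each over common bases, are not plotted.

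The other marker lists with more than 1 gene had medians nearer to 0 over common bases: 0.14 for 5 neutrophil markers, -0.05 for 9 epithelial, -0.10 for 9 fibroblast and -0.03 for 6 endothelial markers. The dendritic marker *Itgax* was at 0.20 and the Treg marker *Ikzf2* at -0.16. Of 15 neutrophil markers 5 were listed in each set (*S100a8*, *S100a9*, *Mmp9*, *Lcn2* and *Il1r2* in whole tumor), with a summed FPKM of 117 in Control SMO tumor and 135 in LFPRLR SMO tumor. The exon-weighted sums were 74.9 and 73.9, so the sums were not higher in LFPRLR SMO tumor by that measure. *Mmp9* had 33.2 and 55.8 by summed FPKM, but 17.5 and 19.2 over common bases. *Ly6g*, *Mpo*, *Elane* and *Cd177* of this list were not listed in any set. *Csf3r* and *Cxcr2*, both receptors of neutrophils, thus stand beside a marker list of which 5 of 15 genes were listed.

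The GM-CSF receptor genes were listed in all 3 sets, but in different parts. *Csf2ra* (chr19:61223957-61228429, minus strand), the alpha chain, had an FPKM of 2.70 in Control SMO tumor, 3.40 in LFPRLR SMO tumor and 3.17 in tumor Tregs. In tumor Tregs its transcript had 11 exons and 100% of the coding bases. With Control SMO it was a piece of 2 exons and 674 bases at the 3′ end with 6.53% of the coding bases, and in LFPRLR SMO tumor a piece of 4 exons and 1191 bases with 42.4%. The log2 ratio was 0.32 by FPKM and over the 507 common bases, and 1.06 exon-weighted, where the longer piece counts for more.

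*Csf2rb* (chr15:78325752-78353847, plus strand), the beta chain, had an FPKM of 5.40 in Control SMO tumor, 13.2 in LFPRLR SMO tumor and 3.70 in tumor Tregs. The log2 ratio was 1.27 by FPKM, but -0.18 exon-weighted and -0.14 over 4512 common bases (2.996 against 2.700). With Control SMO the main transcript had 14 exons, 13 introns that are all annotated and an FPKM of 2.80. With LFPRLR SMO the gene was listed as 4 pieces, and a piece of 389 bases had an FPKM of 7.74, above its own upper bound of 6.47. This piece alone was larger than the summed FPKM in Control SMO tumor. The longest piece in LFPRLR SMO tumor had 10 exons and an FPKM of 2.47.

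Reads of *Csf2rb* can be split with a close copy, *Csf2rb2* (chr15:78282507-78305721, minus strand), the IL-3 receptor beta chain of mice. The coding sequences were 95.2% identical over 2628 aligned bases, and 26.0% of the stretches of 50 bases in *Csf2rb* occurred unchanged in the copy. *Csf2rb2* had an FPKM of 6.84 in Control SMO tumor, 7.13 in LFPRLR SMO tumor and 3.45 in tumor Tregs, a log2 ratio of 0.06 by FPKM, -0.30 exon-weighted and 0.12 over common bases. Values of both genes are uncertain to the extent that reads were divided between them. The other genes of the beta chain family, *Il3*, *Il3ra*, *Il5* and *Il5ra*, were not listed in any set. The study, however, reported *Il3ra* as decreased and *Il5ra* as increased in tumor Tregs with LFPRLR SMO.

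The coverage of single exons, the mean read depth, was deposited for tumor Tregs. All 21 exons of *Csf1r* were covered, from 4.59 (exon 15) to 23.0 (exon 7) with a median of 13.0. All 11 exons of *Csf2ra* were covered, from 1.89 to 4.81. In *Csf2rb* 13 of 14 exons were covered, with a mean of 9.10 over their 1835 bases. The last exon of 2930 bases, which holds the 3′ part of the coding sequence, was listed at 0, so that the mean over the gene was 3.51. The FPKM of 3.70 for *Csf2rb* in tumor Tregs is an average over covered exons and an uncovered one.

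**Figure D5:**
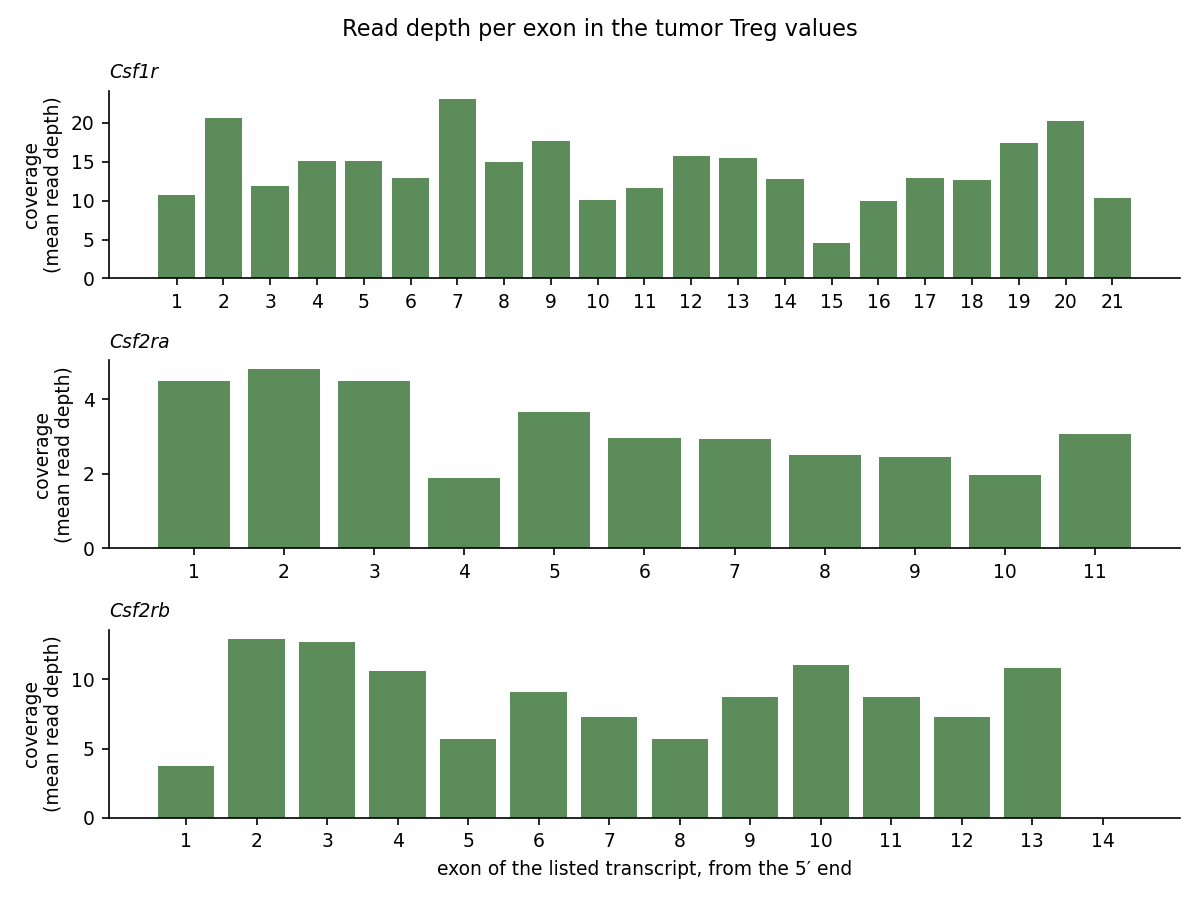
Coverage, the mean read depth, of each exon of *Csf1r*, *Csf2ra* and *Csf2rb* in the tumor Treg values, exons numbered from the 5′ end, 1 bar an exon. Every exon of *Csf1r* (4.59 to 23.0) and *Csf2ra* (1.89 to 4.81) has reads, and the last exon of *Csf2rb* is listed at 0.

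*Csf3r*, the G-CSF receptor gene (chr4:126024550-126044440, plus strand), had an FPKM of 1.09 in Control SMO tumor and 8.02 in LFPRLR SMO tumor and was not listed in tumor Tregs. With Control SMO the transcript had 15 exons and 2168 bases and held 81.2% of the coding bases. With LFPRLR SMO it was a piece of 3 exons and 511 bases, with 20.4% of the coding bases, at the 3′ side of the Control SMO transcript. The log2 ratio was 2.77 by FPKM and 0.75 exon-weighted. Over the 141 common bases it was again 2.77, which with 1 transcript in each library repeats the ratio by FPKM. The ratio was above 0 by all measures, but the high value belonged to 14.7% of the annotated transcript. The parts of *Csf3r* outside this piece were not listed in LFPRLR SMO tumor.

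*Cxcr2* (chr1:74153989-74161246, plus strand) had the highest summed FPKM of the members in Control SMO tumor, 28.8, carried by a single exon of 256 bases that held 0 coding bases. The value lay outside its own bounds, 2.44 to 9.15, and the exon-weighted value was 2.42. No transcript overlapped *Cxcr2* in LFPRLR SMO tumor. In tumor Tregs its annotated transcript of 2 exons was listed at 0.421 FPKM, with a coverage of 1.02 in the first exon and 0.372 in the second, and 12.9% of genes were lower. Leaving out transcripts under 300 bases, or those assigned without a shared intron, leaves no value for *Cxcr2* in whole tumor.

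Genes that act around the members were described by lists. The list of *Cxcr2* ligands and neighbouring chemokine genes had 5 of 9 genes listed in whole tumor, with 2 (*Cxcl5* and *Cxcl12*) higher and 1 (*Cxcl2*) lower by a factor of 2, where 18.5% and 17% of all genes were. Exon-weighted, 1 gene of the list reached 1 FPKM and none was past a factor of 2. *Cxcl1*, a neutrophil chemoattractant, had 4.83 FPKM in Control SMO tumor, 4.47 in LFPRLR SMO tumor and 3.35 in tumor Tregs. *Cxcl2* was listed at 3.21 in Control SMO tumor, not in LFPRLR SMO tumor, and at 37.5 in tumor Tregs, the highest of the list, where *Cxcl3* followed with 16.3. *Cxcl5* was listed in LFPRLR SMO tumor alone, at 2.02. *Cxcl12* had 1.29 in Control SMO tumor and 3.27 in LFPRLR SMO tumor, a ratio of 1.28 by FPKM and over 768 common bases, and of 0.53 exon-weighted. In the tumor Treg library *Cxcl1*, *Cxcl2* and *Cxcl3* were thus each listed above their receptor gene *Cxcr2*, at 0.421 FPKM.

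In the list of CSF-1 receptor signalling, 17 of 17 genes were listed in Control SMO tumor and 15 in LFPRLR SMO tumor, and of the 17, 1 (*Src*) was past a factor of 2 upward and 4 (*Grb2*, *Mapk3* and *Fgr* among them) downward, where 18.5% and 17% of all genes were. The median ratio was -0.33 by FPKM, against -0.08 for all genes, and -0.31 over the common bases of 15 genes, against -0.13. Over common bases 2 were lower by a factor of 2, *Grb2* and *Fyn* (-1.56 over 138 bases), and *Mapk3* went from -1.44 by FPKM to -0.77. *Src* had 2.87 FPKM in Control SMO tumor and 6.75 in LFPRLR SMO tumor, but a ratio of -0.06 over common bases, and *Grb2*, the adaptor that links receptor kinases to Ras, had 16.6 and 8.09 with a ratio of -1.03 by both measures. *Plcg2*, a phospholipase of myeloid and B cells, had 70.9 FPKM in Control SMO tumor and 41.3 in LFPRLR SMO tumor, and *Akt1* 25.2 and 19.98. Over common bases *Plcg2* had 16.5 and 12.0, and its ratio went from -0.78 by FPKM to -0.46. That of *Akt1* went from -0.33 to -0.15. *Fgr*, a kinase of the Src family in myeloid cells, was listed in Control SMO tumor alone at 1.58. *Tyrobp*, a myeloid adaptor, had 23.4 in Control SMO tumor, 17.0 in LFPRLR SMO tumor and 21.4 in tumor Tregs, though its exon-weighted ratio was 0.53. *Ptpn6*, a phosphatase of blood cells, had 6.30, 5.47 and 15.5.

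In the list of GM-CSF and G-CSF receptor signalling, 10 genes reached 1 FPKM, and 1 was higher and 1 lower by a factor of 2, where 18.5% and 17% of all genes were. The median of these 10 was -0.13 by FPKM, against -0.08 for all genes tested, and -0.32 over common bases. *Jak2*, the kinase bound to the beta chain, had 31.3 in Control SMO tumor and 17.9 in LFPRLR SMO tumor. Over common bases *Jak2* had 15.6 and 9.56, with a ratio of -0.70 against -0.81 by FPKM. *Pim1*, a kinase induced by STAT5, was the lower gene, with 16.7 and 6.65, and *Tyk2* the higher, with 1.49 and 4.34, although over common bases their ratios were -0.78 and 0.03. *Socs3*, which restrains the G-CSF receptor, had 3.61, 3.04 and 7.40 in tumor Tregs, and *Socs1* was listed in Control SMO tumor alone at 0.909.

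Of 8 inducers of colony stimulating factors, 5 were listed and none was past a factor of 2, with a median of 0.56 by FPKM, 0.15 exon-weighted and 0.06 over common bases, against -0.08, -0.16 and -0.13 for all genes. *Nfkb1* had 10.7 and 20.03 by summed FPKM, but a ratio of -0.18 over common bases (6.59 against 5.82) and -0.02 exon-weighted. *Il17ra* had 8.06 and 15.1 with 7.33 in tumor Tregs, and its ratio of 0.90 was 0.46 over common bases and 0.15 exon-weighted. *Il1b* had 4.00 and 5.93 in whole tumor and 18.5 in tumor Tregs, and *Il1a* 2.76, 2.88 and 10.1. Both interleukin-1 genes were thus listed in the sorted library.

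The myeloid transcription factors had 12 of 14 genes listed, with 1 higher and 1 lower by a factor of 2, where 18.5% and 17% of all genes were. Their median was -0.18 by FPKM and -0.20 over common bases, against -0.08 and -0.13 for all genes. *Spi1*, which encodes PU.1, a factor known to act on the *Csf1r* promoter, was the lower gene, with 3.45, 1.61 and 7.53 in tumor Tregs, and its ratio was -1.05 by FPKM and over common bases but -0.12 exon-weighted. *Egr1* was the higher gene, with 2.56 and 11.6, but 0.13 over common bases. *Runx1* had 17.2, 15.6 and 1.74 in tumor Tregs, with a ratio of -0.14 by FPKM but 0.22 over common bases. *Maf* had 13.1 and 7.92 with a value of 0 in tumor Tregs. Its ratio went from -0.72 by FPKM to -0.22 over common bases.

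Related growth factor genes had 5 of 8 genes listed, none past a factor of 2 of the 4 with at least 1 FPKM, and a median of -0.05 over the 5 and 0.04 over the 4. *Pdgfrb*, a receptor kinase of the same class as *Csf1r*, had 9.54 and 11.8, and *Sdc1* 9.39 and 10.3. *Kit*, another receptor of this class, was listed in Control SMO tumor alone at 0.816. On the FPKM scale, the ratios of *Pdgfrb* (0.30) and of *Csf1r* (-0.66) thus had opposite signs. That of *Pdgfrb* was however only 0.10 over 4177 common bases (3.20 against 3.43) and 0.11 exon-weighted.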

How the data were processed

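Per the labels, RNA was depleted of ribosomal RNA before the libraries were made. For whole tumor the authors assembled transcripts with Cufflinks on mm10 and deposited, for each, an FPKM, its bounds, a coverage (mean read depth, the deposited signal) and a score relative to the most abundant transcript of its gene, which was not used. For tumor Tregs the deposited coverage, FPKM and TPM came from StringTie 1.2.3. The submitters' processing notes also name HISAT2 2.0.4 and Cuffdiff 2.0.2.

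Transcripts were assigned to GENCODE M21 genes (GRCm38) by a shared intron or by at least 50% of exon bases. This assigned 14806 and 3860 of 22481 transcripts in Control SMO tumor, 14754 and 5488 of 31908 in LFPRLR SMO tumor. For tumor Tregs a gene name carried by the transcript itself was used first, as for *Csf2rb* and *Cxcr2*. Position alone gave the same values for these genes. A gene without a listed transcript entered as 0, and 0.1 was added before log2. A gene was counted past a factor of 2 if it had at least 1 FPKM in at least 1 library. For 94.0% and 95.3% of transcripts the FPKM was inside its bounds. FPKM over common bases is the mean of the summed FPKM over exon bases covered in both libraries. All members were named; of each list, the 2 highest genes in whole tumor, the 2 with the largest ratio and the 2 highest in tumor Tregs were named, with *Csf2rb2*; other genes behind small counts, *Src*, *Grb2*, *Mapk3* and *Fyn* and the macrophage markers among them, were named after their values were seen. Some genes that this rule selects are not reported here. Motifs were searched on both strands. The members, lists and markers were chosen with earlier results of these data known. The counting was tested on simulated data. Python 3.11.15, numpy 2.4.6, Biopython 1.88 and matplotlib 3.10.9 were used.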

Additional observations from a re-analysis of the deposited data

How the results depend on the processing

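Pseudocounts of 0.01 and 1, a factor of 3, a minimum of 5 FPKM, transcripts of at least 300 bases, a shared intron only, exon-weighted values, the most abundant transcript of a gene, TPM and centring were tried, and common bases and same introns were added after seeing the data. The *Csf2rb* ratio of 1.27 reversed to -0.18 exon-weighted and -0.14 over common bases. The 2 members higher by a factor of 2 became 1 exon-weighted (*Csf2ra*), 1 at a factor of 3 (*Csf3r*), 1 over common bases (*Csf3r*) and 4 by TPM. The 2 members lower became 1 with transcripts of at least 300 bases, 1 with a shared intron only (*Csf3* in both), 0 by TPM and 0 over common bases, a measure that needs a transcript in both libraries. Over all genes, the 1939 higher and 1779 lower became 511 and 759 exon-weighted, 6294 and 13 by TPM, 1257 and 1113 at a factor of 3, 893 and 853 from 5 FPKM, and 144 and 324 over common bases, and 1019 were higher with a shared intron only. The cause was not tested. Of the single ratios of the members, 61 were recomputed, 40 stayed within a factor of 1.5 of the value given, 17 moved further with the same sign, and 4 changed sign, the 2 of *Csf2rb* and, by TPM, *Csf1* (2.99) and *Csf1r* (3.17). Some of the 40 could not move. *Csf1r*, *Csf2ra* and *Csf3r* had 1 transcript in each library, so that several settings returned the same value. No paired analysis was possible because each group is 1 library, and no replicate could be left out. Depth is unknown, so genes without a listed transcript have no limit of detection beyond the lowest listed values.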
